A study of Mus musculus with 12 samples.

Results

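A group of 6 fibroblast genes that were lower after IL-4 plus IL-13 was examined: *Megf10*, *Islr*, *Fam20a*, *Dpt*, *Ccn5*, and *Pid1*. They were 6 of the 56941 genes in the counts table and 6 of the 14810 genes that passed the filter on low counts, so every one of them was tested. The genes were taken from among the largest falls in these same libraries. *Megf10*, *Islr*, *Fam20a*, and *Dpt* were picked on IL-4/13 against control, and *Ccn5* and *Pid1* on IL-4/13 + Inf against Inf. The change of each gene in the comparison that picked it is therefore given as a description, with no test.

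The cells were 3T3-L1, a wild-type mouse line of embryonic fibroblasts that can become adipocytes. Bulk RNA-seq of polyadenylated RNA was performed after 24 hours in 4 conditions, with 3 libraries each: control (treatment labelled as vehicle, library names as untreated), IL-4 with IL-13 at 50 ng/mL each (IL-4/13), an inflammatory cocktail (Inf) of 20 ng/mL TNF-α, 50 ng/mL IL-17A, and 0.5 ng/mL IL-1β, and all 5 cytokines at those doses (IL-4/13 + Inf). All 12 libraries came from this 1 cell line and carried the same batch label. The labels do not say whether the 3 libraries of a condition came from separate cultures, so P values measure the spread between these libraries, which may be technical.

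IL-4 and IL-13 are type 2 cytokines that share the receptor chain IL-4Rα and signal through the transcription factor STAT6. In the skin they act on fibroblasts as well as on immune cells and keratinocytes, while TNF-α, IL-17A, and IL-1β act mainly through NF-κB and MAP kinases. The 6 genes encode proteins with different tasks. *Megf10* encodes a surface receptor with EGF-like repeats that takes part in the engulfment of apoptotic cells. *Islr*, also known as meflin, encodes a surface protein of mesenchymal stromal cells with leucine-rich repeats and an immunoglobulin domain. *Dpt* encodes dermatopontin, a small matrix protein that binds decorin. *Ccn5* encodes a secreted matricellular protein of the CCN family. *Fam20a* encodes a pseudokinase of the secretory pathway that activates the kinase made from *Fam20c*. *Pid1* encodes a cytoplasmic adaptor with a phosphotyrosine-binding domain that binds the receptor LRP1 and is known to dampen insulin signalling.

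Total counts per library were 13446005 to 20775769, and the scaling factors of the libraries lay within 0.045 of each other in log2 units. All 12 fibroblast markers on the list used were expressed. Their summed level was 17099 to 19876 CPM (counts scaled to the size of the library) in control, 14699 to 15516 in IL-4/13, 13983 to 15415 in Inf, and 11867 to 12240 in IL-4/13 + Inf, so the sum moved with the falls described here, and its part in them was not tested. The sum was made up mostly of 5 markers, with control means of 5541 CPM for *Col1a2*, 3893 for *Col1a1*, 3625 for *Vim*, 2362 for *Fn1*, and 1733 for *Col3a1*. The single markers did not all move with the sum. Mean levels were lower for 10 of the 12 markers with IL-4/13 than in control and for all 12 with IL-4/13 + Inf than with Inf, but with Inf 8 were lower than in control and 4 higher. The 4 were *Dcn* (103 to 1756 CPM), *Lum* (2.25 to 22.4 CPM), *Pdgfra* (196 to 385 CPM), and *Pdgfrb* (269 to 481 CPM), and *Pdgfra* was also higher with IL-4/13 alone (233 CPM). In bulk RNA, fewer cells of a type and less RNA per cell cannot be told apart. Of 10 markers of mature adipocytes, 7 had at most 3 counts in any library of a condition, among them *Adipoq*, which had at most 1. Their summed level was 33.4 to 37.0 CPM in control, 35.5 to 43.6 in IL-4/13, 56.0 to 58.5 in Inf, and 35.9 to 42.2 in IL-4/13 + Inf, and its part in the results was not tested. Of the markers of other cell types, 4 of 10 for macrophages, 2 of 8 for endothelial cells, and 0 of 8 for epithelial cells passed the filter. Markers of macrophages summed to at most 9.90 CPM, those of endothelial cells to at most 2.26 CPM, and those of epithelial cells to at most 1.25 CPM in any library, with *Ptprc* at no more than 5 counts.

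Per kilobase of exon, the 6 genes ranged widely in control fibroblasts. *Dpt* had 25.1 RPKM (CPM per kilobase), at percentile 82.9 of 14614 tested genes with a known length. *Ccn5* had 6.90, *Islr* 6.36, and *Fam20a* 5.98 RPKM, between percentiles 50.1 and 53.6. *Megf10* with 0.757 RPKM and *Pid1* with 0.510 RPKM were near the low end, at percentiles 16.0 and 12.1. In Inf fibroblasts the order was different, with *Ccn5* at 15.4, *Islr* at 8.61, *Dpt* at 8.497, *Fam20a* at 5.13, *Pid1* at 1.03, and *Megf10* at 0.145 RPKM. Exon lengths came from a GRCm38 annotation, while the reads were counted on GRCm39.

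*Megf10*, the engulfment receptor, stepped down from control through IL-4/13 and Inf to IL-4/13 + Inf. Its level was 5.49, 6.82, and 5.22 CPM in the control libraries, 1.5, 2.66, and 1.91 CPM with IL-4/13, 1.06, 1.02, and 1.27 CPM with Inf, and 0.595, 0.506, and 0.472 CPM with all cytokines. No library of any condition overlapped with the next condition in this order. Relative to the control mean of 5.84 ± 0.86 CPM (SD, n = 3, as for all means here), 34.6% remained with IL-4/13, 19.2% with Inf, and 8.98% with IL-4/13 + Inf. These levels rest on 87 to 110 counts per control library and on 7 to 12 counts per library with all cytokines.

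*Islr*, the stromal surface protein, was lower with IL-4/13 whether or not Inf was present, and higher with Inf alone. Its level was 20.2, 12.9, and 18.1 CPM in control, 9.11, 7.00, and 8.60 CPM with IL-4/13, 22.4, 22.7, and 24.2 CPM with Inf, and 8.48, 10.3, and 10.7 CPM with IL-4/13 + Inf. The Inf libraries were all above the control libraries, and the libraries of both conditions with IL-4/13 overlapped each other and lay below all control libraries. The means were 17.1 ± 3.77 CPM in control, 8.24 ± 1.10 with IL-4/13, 23.1 ± 0.995 with Inf, and 9.81 ± 1.17 with IL-4/13 + Inf.

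*Dpt*, the decorin-binding matrix gene, had the highest level per length of the 6 in control and was lower in every treated condition. Its level was 50.6, 40.2, and 39.2 CPM in control, 21.2, 18.3, and 28.2 CPM with IL-4/13, 16.0, 13.4, and 14.5 CPM with Inf, and 10.6, 12.1, and 9.72 CPM with IL-4/13 + Inf. Each condition was clear of the next in that order, although the lowest IL-4/13 library and the highest Inf library, like the lowest Inf and the highest IL-4/13 + Inf library, lay close together. IL-4/13 left 52.1% of the control mean of 43.3 ± 6.33 CPM, Inf left 33.8%, and both together left 25.0%.

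*Ccn5*, the matricellular gene, fell with IL-4/13 and rose with Inf, and with both it was below control. Its level was 13.9, 11.5, and 14.5 CPM in control, 7.34, 5.96, and 8.31 CPM with IL-4/13, 30.4, 29.6, and 28.8 CPM with Inf, and 10.02, 10.06, and 8.30 CPM with IL-4/13 + Inf. The Inf libraries stood far above the rest, at 223% of the control mean, and all 6 libraries with IL-4/13 were below all control libraries. The IL-4/13 + Inf libraries, with a mean of 9.46 ± 1.00 CPM, overlapped with the IL-4/13 libraries, with a mean of 7.20 ± 1.18 CPM.

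*Fam20a*, the pseudokinase gene, had nearly the same level in the presence of IL-4/13 with and without Inf. Its level was 21.1, 21.0, and 23.1 CPM in control, 11.9, 10.8, and 10.7 CPM with IL-4/13, 18.7, 19.1, and 18.1 CPM with Inf, and 10.3, 9.61, and 10.3 CPM with IL-4/13 + Inf. The 4 conditions did not overlap. The means were 21.7 ± 1.203, 11.1 ± 0.688, 18.7 ± 0.488, and 10.05 ± 0.375 CPM in that order, and the spread between libraries was small next to the distance between the conditions with and without IL-4/13.

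*Pid1*, the adaptor gene, was weakly expressed and stood out in the Inf libraries. Its level was 3.49, 4.03, and 4.98 CPM in control, 2.95, 3.24, and 2.94 CPM with IL-4/13, 8.71, 8.77, and 7.70 CPM with Inf, and 3.67, 2.42, and 3.44 CPM with IL-4/13 + Inf. Inf brought the mean to 201% of control, from 4.17 ± 0.757 to 8.39 ± 0.599 CPM. The libraries with IL-4/13 + Inf, at 3.18 ± 0.667 CPM, overlapped with both the control and the IL-4/13 libraries.

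**Figure D1:**
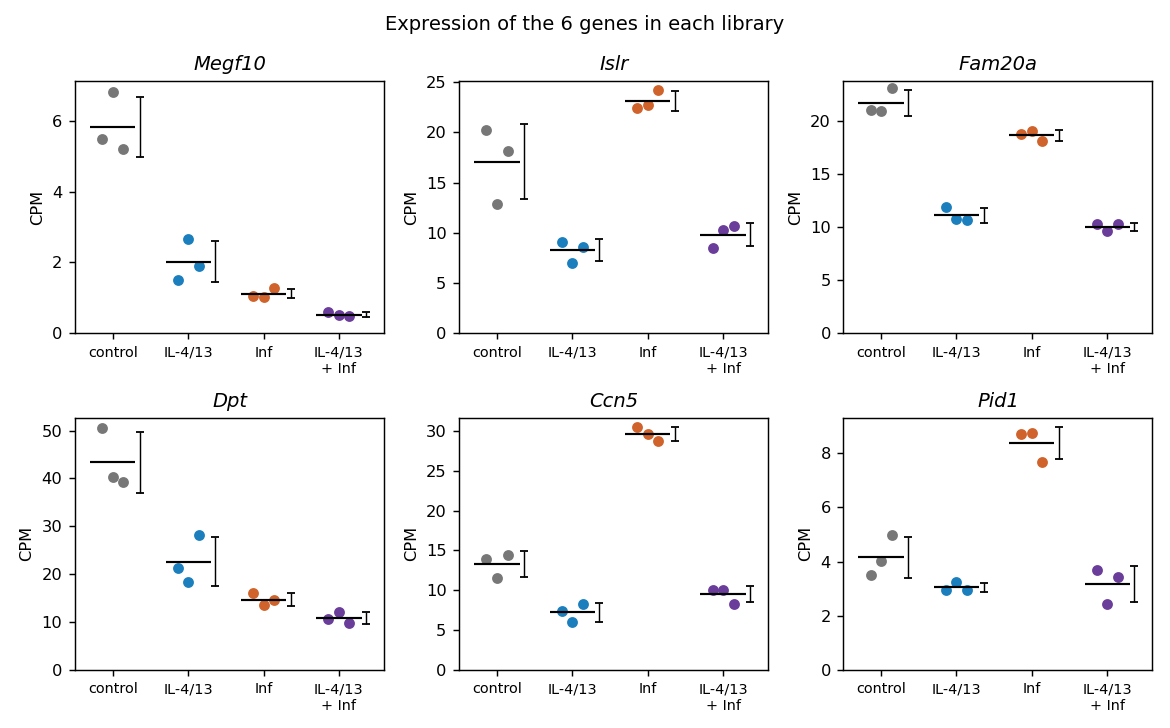
Level of *Megf10*, *Islr*, *Fam20a*, *Dpt*, *Ccn5*, and *Pid1* in CPM (y axis, from 0) in each of the 12 libraries by condition (x axis). Points are libraries, horizontal lines are means, and the bars beside them are ± 1 SD (n = 3). *Islr*, *Ccn5*, and *Pid1* were highest with Inf, at means of 23.1, 29.6, and 8.39 CPM, whereas *Megf10*, *Fam20a*, and *Dpt* were highest in control.

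The first question was how strongly IL-4/13 alone lowered these genes. In the comparison that picked them, the fitted log2 fold change (log2 FC) was −1.54 ± 0.23 (SE) for *Megf10*, −1.05 ± 0.14 for *Islr*, −0.96 ± 0.095 for *Fam20a*, and −0.95 ± 0.14 for *Dpt*. These correspond to 2.90-fold, 2.07-fold, 1.95-fold, and 1.93-fold lower expression. Among 337 genes that were called lower, reached 5 CPM in control or IL-4/13, and had no overlap of the libraries, these 4 held ranks 2 to 5 by log2 FC. The ranks restate how the genes were picked, and the mean of *Megf10* reached 5 CPM only in control. *Dpt*, just inside the first 5, had a value of −0.951, and *Itgbl1*, just outside, had −0.947, so the border between them was narrower than the error of either. Across all genes tested, 2.57% were called lower and 2.78% higher with IL-4/13, where called means an adjusted *P* below 0.05 in edgeR's quasi-likelihood test with a log2 FC beyond 0.25.

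*Ccn5* and *Pid1* were picked in other libraries, so their response to IL-4/13 alone could be tested. *Ccn5* fell by 0.89 ± 0.12 on the log2 scale (adjusted *P* = 6.57e-06, edgeR), with all 3 treated libraries below all controls, and held rank 9 among the 337 falls. *Pid1* had a log2 FC of −0.45 ± 0.19 and did not pass (adjusted *P* = 0.164), although its groups did not overlap. The 95% interval of the *Pid1* difference ran from −0.85 to −0.056. Thus 1 of the 2 genes was called, against 2.57% of all genes. Of the 1037 genes called lower on top of Inf, 20.6% were also called lower with IL-4/13 alone. A count from 2 genes is too small to set against either share.

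The second question was whether IL-4/13 also lowered these genes in cells exposed to Inf. *Islr* fell by 1.24 ± 0.13 on the log2 scale (adjusted *P* = 9.36e-08, edgeR) and *Fam20a* by 0.89 ± 0.096 (adjusted *P* = 2.55e-08) between Inf and IL-4/13 + Inf. *Megf10* fell by 1.06 ± 0.35 (adjusted *P* = 0.0268). *Dpt* had a log2 FC of −0.43 ± 0.16 and did not pass (adjusted *P* = 0.0797), with a 95% interval from −0.78 to −0.074 and no overlap between groups. Thus 3 of the 4 genes picked on IL-4/13 alone were called lower in libraries that had not picked them, where 7% of all genes were called lower and 7.55% higher. Of the 380 genes called lower with IL-4/13 alone, 56.3% were also called lower here, so the count is not particular to these 4 genes.

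The call for *Islr* held in every alternative tried and that for *Fam20a* in all but a log2 FC threshold of 1, whereas those for *Megf10* and *Dpt* changed with several. The call for *Megf10* was lost in a fit of only the Inf and IL-4/13 + Inf libraries (adjusted *P* = 0.0555, edgeR), without Inf replicate 3 (0.0762), and without IL-4/13 + Inf replicate 1 (0.0517), replicate 2 (0.0758), or replicate 3 (0.0719), while its log2 FC stayed between −1.17 and −0.96. *Dpt* was called lower in DESeq2 (adjusted *P* = 0.0162), with no filter on low counts (0.00098), in the fit of only the 2 groups (0.0115), and without control replicate 1 (0.027) or without IL-4/13 replicate 2 (0.027) or replicate 3 (0.0101). Its log2 FC under all alternatives was between −0.52 and −0.36.

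For the genes picked in this comparison, the log2 FC was −1.64 ± 0.11 for *Ccn5* and −1.40 ± 0.17 for *Pid1*, given as descriptions. They held ranks 2 and 5 of 865 eligible falls, which restates how they were picked. The mean of *Pid1* reached 5 CPM only with Inf. *Prss23*, at rank 6, had −1.31, and *Islr* was at rank 8 and *Fam20a* at rank 39.

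On the linear scale, the difference between cells with and without IL-4/13 varied with the level in the cells without it. For *Ccn5* the mean difference was −6.07 ± 1.14 CPM (SE) from control and −20.2 ± 0.749 CPM from Inf, and for *Pid1* it was −1.12 ± 0.448 and −5.21 ± 0.518 CPM. For *Dpt* the order was the other way, with −20.8 ± 4.70 CPM from control and −3.83 ± 1.03 CPM from Inf. For *Megf10* the differences were −3.82 ± 0.600 and −0.595 ± 0.0858 CPM. *Fam20a* changed by −10.6 ± 0.800 and −8.61 ± 0.355 CPM, and *Islr* by −8.85 ± 2.27 and −13.3 ± 0.885 CPM.

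On the log2 scale, the response with Inf minus the response without Inf was −0.75 ± 0.17 for *Ccn5* and −0.95 ± 0.26 for *Pid1*, and 0.53 ± 0.21 for *Dpt*. It was 0.47 ± 0.44 for *Megf10*, −0.19 ± 0.19 for *Islr*, and 0.069 ± 0.14 for *Fam20a*. No test was made of these differences, because each contains the comparison that picked the gene. The picking favoured a negative difference for *Ccn5* and *Pid1* and a positive one for *Megf10*, *Islr*, *Fam20a*, and *Dpt*.

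**Figure D2:**
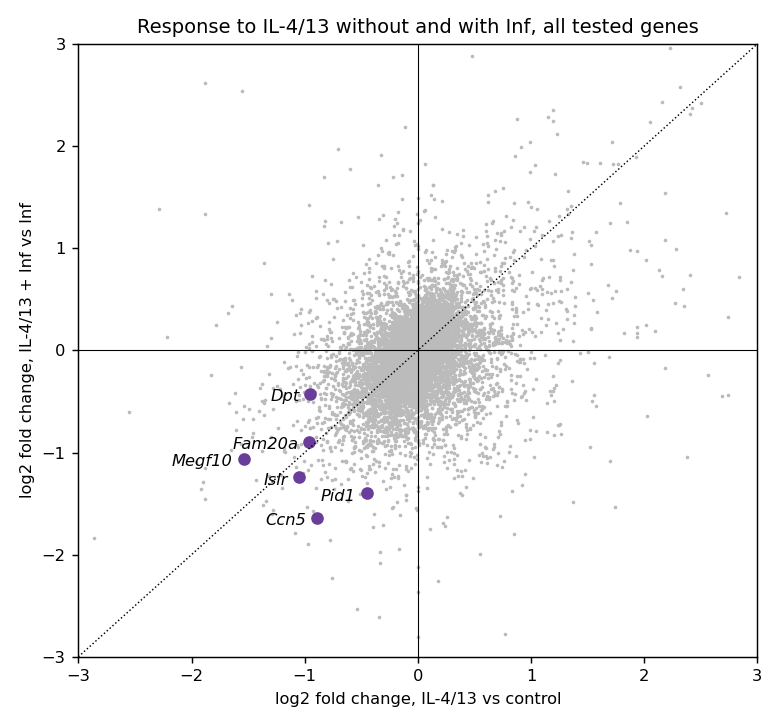
Log2 FC for IL-4/13 against control (x axis) and for IL-4/13 + Inf against Inf (y axis) of all genes tested (grey) and of the 6 genes (purple). The dotted line marks equal responses, and 31 genes lie outside the axes. *Ccn5* and *Pid1* lie below the line, at −1.64 and −1.40 on the y axis, *Dpt* lies above it at −0.43, and *Fam20a* is close to it.

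The third question was what the inflammatory cocktail did without IL-4/13, which divided the 6 genes. *Megf10* fell by 2.38 ± 0.25 on the log2 scale (adjusted *P* = 2.30e-09, edgeR) and *Dpt* by 1.57 ± 0.14 (adjusted *P* = 2.71e-07). *Ccn5* rose by 1.16 ± 0.10 (adjusted *P* = 1.22e-10), *Pid1* by 1.01 ± 0.17 (adjusted *P* = 1.08e-05), and *Islr* by 0.43 ± 0.12 (adjusted *P* = 0.00602). *Fam20a* had a log2 FC of −0.22 ± 0.088 with an adjusted *P* of 0.0462, which is short of the required change of 0.25 and was not called. Hence 2 genes were called lower and 3 higher, in a comparison that called 15.3% of all genes lower and 16.3% higher.

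These tests share the control libraries with the comparison that picked *Megf10*, *Islr*, *Fam20a*, and *Dpt*, and the Inf libraries with the one that picked *Ccn5* and *Pid1*. Picking on a fall from control favours high control values, and picking on a fall from Inf favours high Inf values. The picking therefore favoured a fall with Inf for *Megf10*, *Islr*, *Fam20a*, and *Dpt*, and a rise for *Ccn5* and *Pid1*. These *P* values and counts are not independent of the picking. The rise of *Islr* depended on a single control library, the one with 12.9 CPM. Without control replicate 1 or replicate 3, in which *Islr* was higher, the log2 FC was 0.58 or 0.48, and without control replicate 2 it was 0.27 and the call was lost (adjusted *P* = 0.0527, edgeR).

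With all 5 cytokines, 5 of the 6 genes were called lower than in control, where 11.5% of all genes were called lower. *Megf10* fell by 3.44 ± 0.28 on the log2 scale (adjusted *P* = 1.13e-11, edgeR), *Dpt* by 2.00 ± 0.15 (adjusted *P* = 2.64e-08), and *Fam20a* by 1.11 ± 0.095 (adjusted *P* = 3.52e-11). *Islr* fell by 0.81 ± 0.14 (adjusted *P* = 2.75e-05) and *Ccn5* by 0.48 ± 0.12 (adjusted *P* = 0.00147), although Inf alone had raised both. *Pid1*, with −0.39 ± 0.19, did not pass (adjusted *P* = 0.121), and its libraries overlapped with control. This comparison too shares its control or its IL-4/13 + Inf libraries with the comparison that picked each gene. The picking favoured high control values for *Megf10*, *Islr*, *Fam20a*, and *Dpt*, and low IL-4/13 + Inf values for *Ccn5* and *Pid1*. It therefore favoured a value below control for all 6 genes, and the count of 5 and its *P* values are not independent of it.

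**Figure D3:**
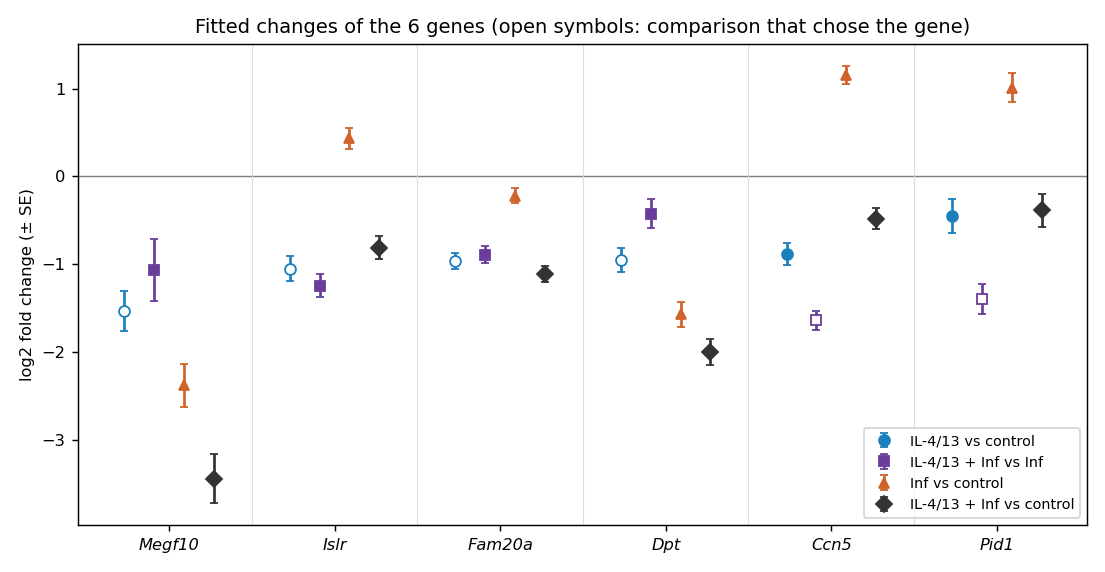
Fitted log2 FC ± SE (y axis) of each of the 6 genes (x axis) in 4 comparisons, from 1 model of all 12 libraries. Open symbols mark the comparison that picked the gene, for which no test was made. Inf moved *Megf10* (−2.38) and *Dpt* (−1.57) down and *Islr* (0.43), *Ccn5* (1.16), and *Pid1* (1.01) up, while with all 5 cytokines every gene had a value below 0.

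Of 380 genes called lower with IL-4/13 alone and 1037 called lower when it was added to Inf, 214 were in both lists. They are 56.3% of the genes lower with IL-4/13 alone, beside 7% of all genes called lower on top of Inf. They are 20.6% of the genes lower on top of Inf, beside 2.57% of all genes called lower with IL-4/13 alone. Within these 214 genes, 76 were called lower with Inf, 68 higher, and 70 neither, where 15.3% of all genes were called lower and 16.3% higher. The comparison of Inf with control shares libraries with both of the comparisons that define the 214 genes, so nothing is read from this split.

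The genes with the most similar course over the 4 conditions were found by the Euclidean distance between centred mean log2 CPM values, among 11253 tested genes with at least 5 CPM in 1 condition. *Pid1* (distance 0.469) was among the 3 nearest genes to *Islr*, and *Pid1* (0.446) and *Islr* (0.521) were among the 3 nearest to *Ccn5*. The nearest to *Islr* was *Prss23* (0.252), a serine protease gene, followed by *Col12a1* (0.426). The nearest to *Ccn5* was *Slc22a23* (0.360), an orphan member of a transporter family. *Pid1* was nearest to *Col12a1* (0.192), which encodes a fibril-associated collagen, then to *Abca1* (0.256), a cholesterol exporter, and to *Prss23* (0.299). The log2 FC of these companions with Inf ranged from 0.60 for *Prss23* to 1.26 for *Slc22a23*, and with IL-4/13 on top of Inf from −1.16 for *Col12a1* to −1.31 for *Prss23*.

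*Dpt* was nearest to *Anxa8* (0.226), an annexin gene, then to *Adam23* (0.236) and to *Spry1* (0.256), a feedback inhibitor of receptor tyrosine kinase signalling. *Megf10* had no close neighbour, and its nearest were *Mn1* (0.576), *Adcyap1r1* (0.577), and *Aspn* (0.583), the last encoding the small leucine-rich matrix protein asporin. *Fam20a* was nearest to *Socs2* (0.270), a feedback inhibitor of cytokine signalling, then to *Glt8d2* (0.275) and to *Mfap5* (0.292), which encodes a microfibril-associated glycoprotein. Among the 6 genes themselves, *Ccn5* and *Pid1* were closest (0.446) and *Megf10* and *Ccn5* farthest apart (2.84). These distances describe 4 condition means from the same libraries and carry no test.

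Promoter windows of 250 bases before to 50 bases after the transcription start were taken from RefSeq (GRCm38.p6), where 4 of the 6 genes had an entry. Both strands were searched for the STAT motif TTCNNNGAA, for the STAT6 motif (TTC and GAA with 4 bases of any kind between them), for the AP-1 motif TGANTCA, the TATA box TATAAA, and the NF-κB motif. The windows of *Islr*, *Fam20a*, and *Pid1* held none of these letters. The window of *Dpt* held TTCNNNGAA from −128 to −120 and TATAAA from 13 to 18, counted from the start as 1. Of all 32851 windows, 8.3% hold TTCNNNGAA, 6.95% the STAT6 motif, 7.81% TGANTCA, 13.6% TATAAA, and 4.51% the NF-κB motif. The windows of *Dpt* (chr1:164796413-164796712, plus strand) and *Islr* (chr9:58158505-58158804, minus strand) are shown 5′ to 3′ as a gene that fell and a gene that rose with Inf, with the matches in capitals. The call of *Islr* as higher with Inf was lost without control replicate 2. A match describes the letters in a window and is not evidence of binding.
Dpt: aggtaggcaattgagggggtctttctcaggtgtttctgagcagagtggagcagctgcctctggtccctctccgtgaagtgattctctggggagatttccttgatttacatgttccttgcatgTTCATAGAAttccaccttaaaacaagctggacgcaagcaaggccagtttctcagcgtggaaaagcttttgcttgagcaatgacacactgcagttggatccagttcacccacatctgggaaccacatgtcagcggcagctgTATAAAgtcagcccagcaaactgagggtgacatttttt
Islr: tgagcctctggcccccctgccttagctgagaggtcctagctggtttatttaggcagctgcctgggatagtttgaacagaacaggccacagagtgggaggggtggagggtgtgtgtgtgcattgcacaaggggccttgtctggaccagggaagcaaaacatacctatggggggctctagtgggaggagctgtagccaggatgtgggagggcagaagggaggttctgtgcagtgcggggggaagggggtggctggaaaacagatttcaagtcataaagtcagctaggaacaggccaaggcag

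Relatives and partners of each gene were then compared, with the 6 genes themselves left out of every count and median. In the CCN family, which comprises 6 matricellular proteins, 4 members besides *Ccn5* were tested. *Ccn2*, which encodes connective tissue growth factor, had the reverse order of condition means to *Ccn5*. Its level was 16.97, 20.7, and 19.4 CPM in control, 30.6, 29.0, and 27.7 CPM with IL-4/13, 12.3, 13.8, and 13.5 CPM with Inf, and 30.3, 26.9, and 23.3 CPM with IL-4/13 + Inf. The libraries with and without IL-4/13 did not overlap. *Ccn2* rose by 0.62 ± 0.095 on the log2 scale with IL-4/13 alone (adjusted *P* = 3.09e-05, edgeR) and by 1.02 ± 0.099 on top of Inf (adjusted *P* = 3.35e-09).

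*Ccn1*, a further matricellular gene of the family, rose by 0.42 ± 0.044 with IL-4/13 on top of Inf (adjusted *P* = 1.81e-08, edgeR) and had a log2 FC of 0.19 with IL-4/13 alone, short of the required change. *Ccn4* fell by 0.37 ± 0.061 with IL-4/13 alone (adjusted *P* = 6.47e-05) and by 0.29 ± 0.061 on top of Inf (adjusted *P* = 0.000762), from a control mean of 105 ± 3.06 CPM. The fall of *Ccn4* on top of Inf was not called without Inf replicate 2. *Ccn3* was not called in either comparison, and *Ccn6* was too low to be tested. The median log2 FC of the 4 genes was 0.12 with IL-4/13 alone and 0.16 on top of Inf, beside −0.0014 and −0.0098 for all genes tested. Of all genes, 2.78% were called higher and 2.57% lower with IL-4/13 alone, and 7.55% and 7% on top of Inf.

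**Figure D4:**
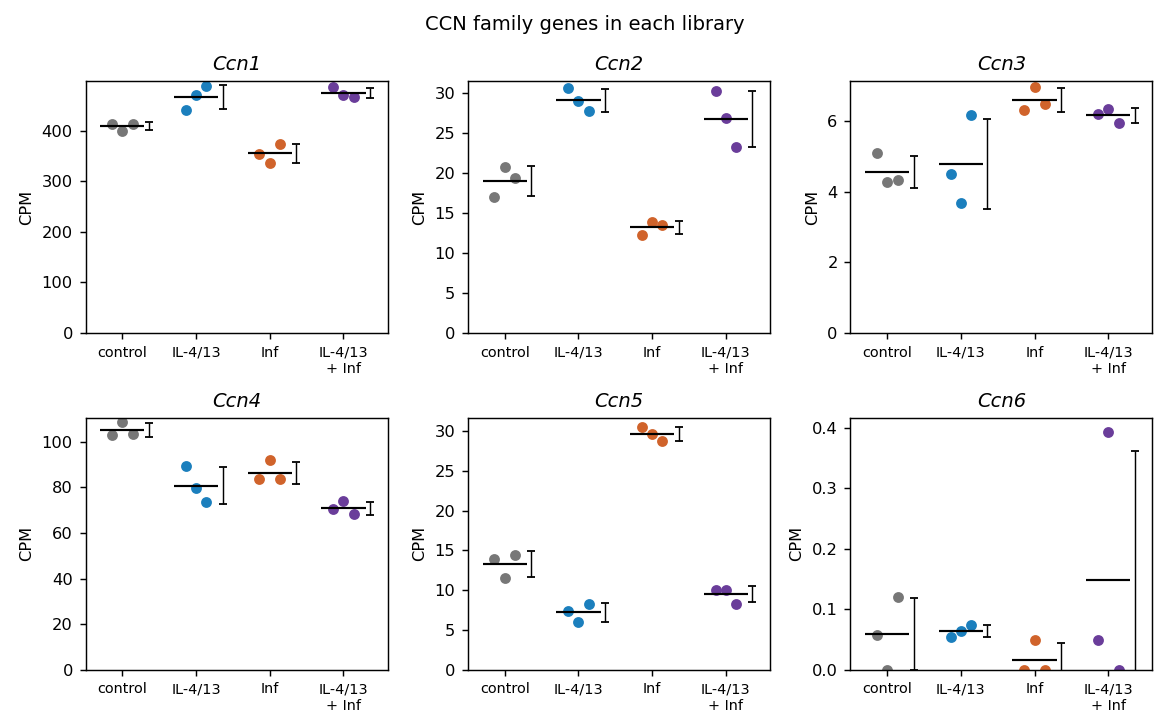
Level of the 6 CCN family genes in CPM (y axis, from 0 and scaled for each gene) in each library by condition (x axis). Points are libraries, horizontal lines are means, and the bars are ± 1 SD (n = 3). *Ccn5* was highest with Inf, at a mean of 29.6 CPM, where *Ccn2* was lowest, at 13.2 CPM, and *Ccn6* had too few counts to be tested.

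Of the secretory-pathway kinases and relatives of *Fam20a*, 10 besides *Fam20a* were tested. *Fam20c*, the kinase that phosphorylates secreted proteins and is activated by the *Fam20a* product, fell with IL-4/13 alone by 0.40 ± 0.12 (adjusted *P* = 0.0306, edgeR) and on top of Inf by 0.57 ± 0.10 (adjusted *P* = 0.000191). The level of *Fam20c* was at 182% of its control mean with Inf, with 39.5 ± 3.40 CPM against 21.6 ± 3.67 CPM. On top of Inf, *Dipk2a* also fell (−0.30 ± 0.073, adjusted *P* = 0.00255), and *Fjx1*, a Golgi protein gene, rose (1.24 ± 0.25, adjusted *P* = 0.000435). In all, 0 of the 10 were called higher and 1 lower with IL-4/13 alone, and 1 higher and 2 lower on top of Inf, with medians of −0.13 and −0.049. Of all genes tested, 2.78% were called higher and 2.57% lower with IL-4/13 alone, and 7.55% and 7% on top of Inf, so counts this small in 10 genes are not a result about the list. The call with IL-4/13 alone was lost without control replicate 3, without IL-4/13 replicate 1, and without IL-4/13 replicate 3, and without Inf replicate 2 only 1 was lower on top of Inf.

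Among 18 tested receptors, bridging proteins, and adaptors of apoptotic-cell engulfment other than *Megf10*, 1 was called higher and 2 lower with IL-4/13 alone, and 1 higher and 3 lower on top of Inf. The genes that fell in both were *Scarf2*, a scavenger receptor gene (−0.41 ± 0.071 and −0.28 ± 0.071, adjusted *P* = 0.00034 and 0.00593, edgeR), and *Gas6*, which encodes a ligand that bridges phosphatidylserine to TAM receptors (−0.30 ± 0.050 and −0.37 ± 0.055, adjusted *P* = 8.08e-05 and 7.01e-06). *Itgb5*, an integrin subunit gene, rose in both (0.27 ± 0.037 and 0.71 ± 0.037). *Abca1* fell on top of Inf (−1.24 ± 0.097, adjusted *P* = 2.88e-10) and had −0.21 ± 0.11 with IL-4/13 alone, which did not pass (adjusted *P* = 0.258). The list medians were −0.13 and −0.14. Among all genes tested, the shares called higher and lower were 2.78% and 2.57% alone and 7.55% and 7% on top of Inf.

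Of the leucine-rich repeat and immunoglobulin receptors structurally related to *Islr*, 10 besides *Islr* were tested and 11 were too low, including *Islr2*. With IL-4/13 alone, 0 were called higher and 1 lower, and the same counts were found on top of Inf, where 7% of all genes were called lower, against 2.57% with IL-4/13 alone, so 1 of 10 is not a result about the list. The gene called with IL-4/13 alone was *Lrig3* (−0.27 ± 0.082, adjusted *P* = 0.0409, edgeR) and the one called on top of Inf was *Lrig2* (−0.41 ± 0.11, adjusted *P* = 0.0102), and both encode membrane proteins that modulate growth factor receptors. The medians were −0.065 and −0.20. With IL-4/13 alone, the call of *Lrig3* was lost on leaving out control replicate 1 or 3, any IL-4/13 replicate, or IL-4/13 + Inf replicate 1 or 2, and leaving out control replicate 1 or IL-4/13 replicate 1 or 2 gave 1 gene called higher. On top of Inf, the call of *Lrig2* was lost without IL-4/13 + Inf replicate 2, and 1 gene was called higher without Inf replicate 2.

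In insulin receptor signalling, the pathway that *Pid1* is known to dampen, 2 of 19 genes were called higher and 0 lower with IL-4/13 alone, and 1 higher and 2 lower on top of Inf. *Irs1*, the insulin receptor substrate, rose in both (0.56 ± 0.071 and 0.55 ± 0.080, adjusted *P* = 1.19e-06 and 5.70e-06, edgeR). Its level was 37.4 ± 1.44 CPM in control, 55.2 ± 2.30 with IL-4/13, 17.8 ± 1.78 with Inf, and 26.2 ± 0.985 with IL-4/13 + Inf, the last still below control. *Pik3r1*, a regulatory subunit of PI3 kinase, rose with IL-4/13 alone (0.32 ± 0.065, adjusted *P* = 0.00111). *Grb14*, an adaptor that inhibits the insulin receptor, fell on top of Inf (−0.83 ± 0.068, adjusted *P* = 1.06e-10) after being at 196% of its control mean with Inf, and *Shc1*, a signalling adaptor gene, fell as well (−0.38 ± 0.040, adjusted *P* = 2.51e-08). The medians were 0.025 and −0.033. Of all genes, 2.78% were called higher and 2.57% lower alone, and 7.55% and 7% on top of Inf, and the list's counts on top of Inf were near these shares.

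Of 15 phosphotyrosine-binding adaptors and LRP receptors other than *Pid1*, 1 was called higher and 3 lower with IL-4/13 alone, and 0 higher and 4 lower on top of Inf. *Apba1*, an adaptor gene of the family that binds amyloid precursor protein, fell in both (−0.59 ± 0.19 and −1.15 ± 0.19, adjusted *P* = 0.0431 and 2.80e-05, edgeR). *Numbl*, a relative of the Notch regulator Numb, also fell in both (−0.29 ± 0.061 and −0.55 ± 0.060, adjusted *P* = 0.00158 and 3.79e-08). The Wnt coreceptor gene *Lrp5* fell with IL-4/13 alone (−0.30 ± 0.049, adjusted *P* = 7.98e-05), and *Apbb1* fell on top of Inf (−0.40 ± 0.069, adjusted *P* = 6.83e-05). *Dab2*, also on this list, moved in opposite directions. Its level was 111 ± 3.09 CPM in control, 133 ± 4.93 with IL-4/13, 176 ± 10.7 with Inf, and 143 ± 1.87 with IL-4/13 + Inf. The list medians of log2 FC were −0.13 and −0.067. The shares called among all genes were 2.78% higher and 2.57% lower alone, and 7.55% and 7% on top of Inf. Without IL-4/13 replicate 1, 0 were called higher with IL-4/13 alone.

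Of the 7 lists, the matrix genes listed with *Dpt* had the largest number of calls, although as a share of the genes tested the CCN family, with 2 of 4 called with IL-4/13 alone and 3 of 4 on top of Inf, had more. Of 15 tested besides *Dpt*, 0 were called higher and 6 lower with IL-4/13 alone, and 0 higher and 9 lower on top of Inf, with a median of −0.29 in both, where 2.57% and 7% of all genes were called lower. Without control replicate 3, 1 was called higher with IL-4/13 alone. *Thbs2*, which encodes the matricellular protein thrombospondin 2, fell in both (−0.37 ± 0.055 and −1.08 ± 0.055, adjusted *P* = 3.38e-05 and 8.54e-14, edgeR), and its level was 314 ± 12.2 CPM in control, 243 ± 9.39 with IL-4/13, 411 ± 41.5 with Inf, and 194 ± 2.92 with IL-4/13 + Inf. *Fmod*, which encodes the collagen-binding proteoglycan fibromodulin, fell with IL-4/13 alone (−0.75 ± 0.23, adjusted *P* = 0.0378) from 4.05 ± 0.555 CPM. On top of Inf the direction of *Fmod* was the opposite, with 0.89 ± 0.36, which did not pass (adjusted *P* = 0.0731, edgeR). *Lum*, the lumican gene, fell on top of Inf (−0.73 ± 0.11, adjusted *P* = 6.63e-06), and so did *Col12a1* (−1.16 ± 0.19, adjusted *P* = 0.00237). With Inf against control, 6 of these 15 genes were called higher and 6 lower, beside 16.3% and 15.3% of all genes. Several of these matrix genes are also in the fibroblast marker list given above. This list, like the others, was drawn up with earlier results of these data known, so its counts are a description.

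**Figure D5:**
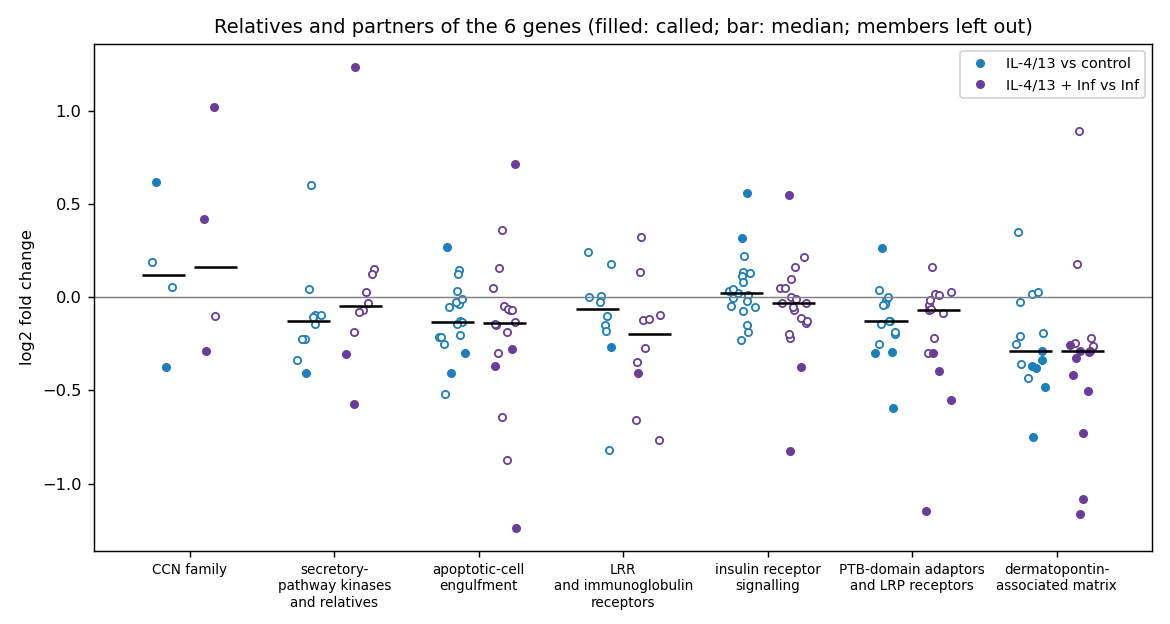
Log2 FC (y axis) of the tested genes in 7 lists of relatives and partners (x axis), for IL-4/13 against control (blue) and IL-4/13 + Inf against Inf (purple). Filled points were called, open points were not, bars are list medians, and the 6 genes are left out. The matrix genes listed with *Dpt* have a median of −0.29 in both comparisons, and in the lists other than this and the CCN family most genes were not called.

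None of the 50-base stretches of their longest transcripts (GENCODE M21, GRCm38) occurred in a transcript of another gene. Exons of *Islr* overlap those of *Islr2* on the same strand over 181 bases, or 6.74% of the *Islr* exon length, and *Islr2* had 48 counts in all 12 libraries together.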

How the data were processed

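Stranded polyadenylated RNA libraries of 12 samples were analysed. The authors deposited raw counts per gene (whole numbers, not normalized). The submitters' processing notes name STAR, featureCounts, and GRCm39, and versions, annotation, and strand setting are not given in the sources used here. The analysis used edgeR 4.0.16 and, as an alternative, DESeq2 1.42.0 in R 4.3.3, and matplotlib 3.10.9 under Python 3.11.15. Of 56941 genes, 23268 had no symbol in the deposited table, and symbols were filled in from a table of gene names. Genes were kept by filterByExpr (minimum count 10, minimum total 15), and all 12 libraries entered 1 quasi-likelihood model (robust, TMM scaling, 1 term per condition), with Benjamini-Hochberg adjustment over 14810 genes in each contrast. CPM are counts relative to the scaled total of tested genes, and RPKM are CPM per kilobase of exon. The study's methods name DESeq2 for these libraries.

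The 6 genes and the gene lists were chosen with earlier results of these data known. The named genes were the 6, up to 4 called genes of each list with the largest change, the 3 nearest genes to each of the 6, and the genes next in rank. *Dab2* was added because its level moved in opposite directions. The other alternatives were other scalings, filters, and thresholds, a fit of only the groups compared, a replicate block, and leaving out each library. The model was tested on simulated counts. Replicate numbers are shared between conditions, but same-numbered libraries did not deviate together, so no pairing was used.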

Additional observations from a re-analysis of the deposited data

Results flagged for a closer look

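In 29 tested genes of the CCN, secretory-kinase, and *Dpt*-associated matrix lists that are not among the 6, the response to IL-4/13 with Inf was tested against the response without Inf in edgeR, and 4 differed, compared with 3.11% of all genes tested. All 4 were matrix genes, which made up 15 of the 29, and the genes of the other lists were not tested for this difference. The log2 difference (with Inf minus without) was −0.71 ± 0.077 (SE) for *Thbs2* (adjusted *P* = 1.52e-06), whose fall was larger with Inf. For *Fbln1*, the fibulin 1 gene, it was −0.34 ± 0.090 (adjusted *P* = 0.0258), and its log2 FC was 0.017 with IL-4/13 alone and −0.33 on top of Inf. For *Dcn*, the decorin gene, it was −0.26 ± 0.060 (adjusted *P* = 0.00805), with a log2 FC of −0.024 alone and −0.29 on top of Inf, where its level was 1756 ± 72.0 CPM before IL-4/13 was added, against 103 ± 4.31 CPM in control. For *Fmod* it was 1.65 ± 0.43 (adjusted *P* = 0.0232), with a log2 FC of −0.75 alone and 0.89 on top of Inf. The level of *Fmod* with Inf rested on 6 to 13 counts per library.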

How the results depend on the processing

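In the 4 counts of genes called lower among the 6, 89 of 92 recomputed values stayed within 1.5 times the reported count. With a mean of at least 50 counts required, 1 gene instead of 2 was called lower with Inf, because *Megf10* was no longer tested. With a log2 FC beyond 1 required, 0 instead of 1 of *Ccn5* and *Pid1* were called lower with IL-4/13 alone, and 3 instead of 5 genes were called lower with all cytokines. Leaving out each library gave 2 to 4 calls of 4 for IL-4/13 on top of Inf, and the other 3 of these counts did not move. The count of 3 genes called higher with Inf fell to 2 without control replicate 2, and with a log2 FC beyond 0.5 or 1 required, where *Islr* was lost. The replicate block left these counts at 3 of 4, 1 of 2, 2, and 5. Replicate numbers did not pair the libraries: over 18 same-numbered pairs the correlation of deviations was −0.15 to 0.054, and 0 of 12 libraries correlated best with their own number. No log2 FC changed sign, and no scaling moved the median of all genes by more than 0.1. Outside the choices of threshold, calls that changed are those given above for *Megf10*, *Dpt*, and *Islr*. Depth limits *Megf10*, with 7 to 12 counts per library with all cytokines, and *Pid1*, with 40 to 180 counts per library.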
